A study of Mus musculus with 6 samples.

Results

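Glycolysis and hypoxia response genes were followed in macrophages sorted from tumours of MC38, a colon carcinoma line of the mouse. The set holds 37 gene symbols of the 21760 in the count table. It was listed by symbol, with earlier results of these data known, so its shares beside all genes are descriptions. It comprises 14 glycolytic enzymes, 5 regulators and transporters of glycolysis, the oxygen-sensitive factor Hif1a with the prolyl hydroxylases Egln1 and Egln3, and 15 other hypoxia targets. Levels are given as CPM, the counts of a gene scaled to the size of its library. After the filter on low counts 36 of the 37 were tested, among 15560 genes in all. The member left out was the carbonic anhydrase Car12, which stood at 0.275 CPM or less in each library. The subcutaneous tumours were taken on day 16 from C57BL6 hosts that had received no other treatment. Macrophages came from 2 mice with wild type (WT) tumours, 2 with tumours of Xkr8 knockout (KO) clone 1 and 2 with tumours of Xkr8 KO clone 2. Xkr8 is a scramblase that brings phosphatidylserine to the outside of dying cells. It was knocked out in the tumour and not in the host macrophages, and each KO tumour line is 1 clone. Which surface markers defined the sort is not given in the sources used here.

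Glycolysis breaks glucose down to pyruvate, and lactate dehydrogenase turns pyruvate into lactate, which leaves the cell through monocarboxylate transporters. When oxygen is short, the prolyl hydroxylases stop marking HIF-1 alpha for destruction, and the stabilised factor raises transcription of glucose transporters, glycolytic enzymes and other targets. Inflammatory signals can also raise HIF-1 alpha in macrophages. Regulation of HIF-1 alpha by oxygen acts on the protein, which RNA sequencing does not measure.

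Library totals lay between 20038047 and 40022755 estimated counts. WT mouse 2 stood apart, with the lowest total, 24.6% of its counts on the ribosomal precursor Rn45s against 1.46% to 7.12% in the other 5, and 16810 symbols detected against 18193 to 19250. The 12 macrophage markers summed to between 8906 and 12741 CPM in each library. Of the 11 epithelial or tumour markers in the table, 9 (Epcam, Krt8, Krt18, Krt7, Krt20, Cldn4, Cldn7, Cdx1 and Esrp1) were under 1 CPM throughout. Their sum was 44.7 CPM in WT mouse 2, of which Cdh1 gave 43.1 CPM, and between 11.6 and 16.7 CPM in the other libraries. The 12 fibroblast markers summed to 12017 CPM in WT mouse 2 and to between 2478 and 4162 CPM elsewhere. The 8 monocyte markers summed to 80.5 CPM in WT mouse 2, 306 CPM in WT mouse 1, 488 and 706 CPM in clone 1 and 808 and 922 CPM in clone 2. The 12 T and NK cell markers in the table were low but separated the genotypes, with sums of 14.6 and 27.4 CPM for WT against 53.5 to 93.4 CPM for KO. In KO against WT all 12 had positive log2 fold changes and 2, Cd3g and Cd2, passed in edgeR, as did 0.135% of all genes. All 8 monocyte markers were also positive there and 1 passed. Its adjusted p of 0.0028 (edgeR) equalled the lowest over all genes. The 9 neutrophil markers summed to 40.3 and 38.9 CPM for WT against 56.3 to 74.9 CPM for KO, with Ly6g, S100a8, S100a9, Retnlg, Camp and Ngp under 1 CPM throughout. Of the 7 neutrophil markers tested, 6 had positive log2 fold changes in KO against WT and 1 a negative one. The 10 endothelial markers summed to 25.9 and 36.2 CPM for WT against 58.3 to 72.8 CPM for KO, with Tek, Tie1, Emcn, Cldn5 and Esam under 1 CPM throughout. Of the 7 endothelial markers tested, 5 were positive in KO against WT and 2 negative. The dendritic cell sums overlapped between genotypes (20.4 to 47.5 CPM), and the erythroid sum was highest in WT mouse 1, at 29.1 CPM against 3.56 to 5.96 CPM. The part of these differences in the results below was not tested. In bulk RNA from sorted cells, fewer cells of a type and less RNA per cell cannot be told apart.

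Promoter sequence is shown for a few members because hypoxia targets are known for a short element bound by HIF, whose core reads ACGTG or GCGTG. RefSeq promoters on GRCm38.p6, 250 bases before to 50 after the start, were found for 35 of the 37 members (not for Bnip3l and Ndrg1) and searched for each core on both strands. ACGTG was present in 25 of these 35 genes (71.4%), against 28.1% of the 12086 tested genes with a promoter and 21.8% of all 27025 genes of the promoter table. GCGTG was present in 65.7% of the members and 52.1% of the tested genes. The longer TACGTG, which contains ACGTG, was present in 25.7% and 4.42%. Mean GC content was 63.3% in member promoters and 59.6% in those of tested genes. Below are stretches upstream of the start, 5′ to 3′ on the strand of the gene, with the core or its reverse complement in capitals. The core shown is ACGTG except for Adm, where no ACGTG was found and the capitals mark the reverse complement of GCGTG. The 7 genes from Hk2 to Adm had lower CPM in both clone 2 libraries than in the other 4, and Hif1a, Bnip3 and P4ha1 did not.
Hk2: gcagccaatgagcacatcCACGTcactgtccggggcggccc
Pgk1: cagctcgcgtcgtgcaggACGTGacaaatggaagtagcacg
Ldha: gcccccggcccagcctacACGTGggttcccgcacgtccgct
Ero1l: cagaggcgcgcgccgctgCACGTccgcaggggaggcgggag
Ddit4: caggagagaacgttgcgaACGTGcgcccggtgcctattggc
P4ha2: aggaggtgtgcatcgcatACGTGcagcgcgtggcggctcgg
Adm: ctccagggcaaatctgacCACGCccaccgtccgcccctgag
Hif1a: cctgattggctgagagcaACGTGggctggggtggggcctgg
Bnip3: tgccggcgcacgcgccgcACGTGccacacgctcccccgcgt
P4ha1: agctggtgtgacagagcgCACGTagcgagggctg

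These stretches lie at chr6:82774484-82774524 on the minus strand (Hk2), chrX:106186932-106186972 (Pgk1), chr7:46845739-46845779 (Ldha), chr14:45318613-45318653 on the minus strand (Ero1l) and chr10:59951935-59951975 on the minus strand (Ddit4). The others are chr11:54100828-54100868 (P4ha2), chr7:110627585-110627625 (Adm), chr12:73907779-73907819 (Hif1a), chr7:138909591-138909631 on the minus strand (Bnip3) and chr10:59323262-59323295 (P4ha1). None overlaps an exon of GENCODE M21. A match of this kind is a description of letters and not a binding site. Among the tested members with a promoter, ACGTG was present in 19 of the 26 whose clone 2 libraries were both lowest (73.1%) and in 6 of the other 8 (75.0%).

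Across the set the lowest levels were those of macrophages from clone 2 tumours. In 27 of the 36 tested members both clone 2 libraries lay below the other 4, against 11.8% of all genes tested. These 27 included 13 of the 14 glycolytic enzymes, 3 of the 5 regulators and transporters, Egln1 and 10 of the 14 tested hypoxia targets. The exceptions were Hk1, Pfkfb4, Pdk1, Hif1a, Egln3, Bnip3, Bnip3l, P4ha1 and Higd1a. No member passed an adjusted p of 0.05 in edgeR's quasi-likelihood test in any of the 4 comparisons made, so the levels below are given as measured.

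**Figure D1:**
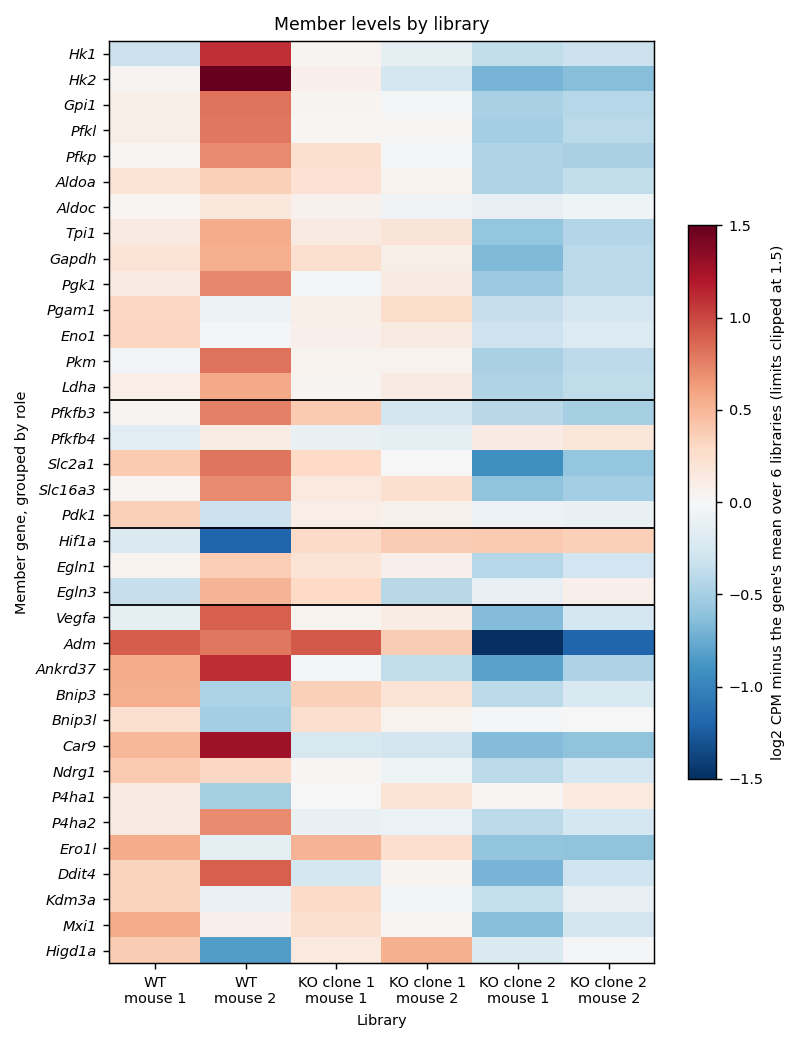
Level of each of the 36 tested members (rows, grouped by role, with lines between groups) in each of the 6 libraries (columns). Colour is log2 CPM minus the mean log2 CPM of that gene over the 6 libraries, clipped at 1.5. The clone 2 columns are the lowest in 27 rows, WT mouse 2 is the highest library in 22 rows, and Hif1a is lowest in the WT libraries.

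The 14 glycolytic enzymes together were the most abundant group. Their summed level was 14762 CPM in WT mouse 1, 20438 CPM in WT mouse 2, 14580 and 14327 CPM in clone 1, and 9524 and 10358 CPM in clone 2. The clone 1 libraries were close to WT mouse 1, and WT mouse 2 was above all the others. The clone 2 mean was 68.8% of the clone 1 mean and 56.5% of the WT mean. The level in clone 2 as a share of that in clone 1 ran from 61.9% for Gapdh to 93.4% for Aldoc, with Eno1 at 77.8%, Hk1 at 81.4% and a median of 70.8% over the 14 enzymes.

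Hexokinases trap glucose in the cell as glucose phosphate. Hk2, the inducible form (chromosome 6, 82725025 to 82774454, minus strand, GRCm38), stood at 277 and 759 CPM in WT, 284 and 224 CPM in clone 1, and 167 and 173 CPM in clone 2. Both clone 2 libraries were the lowest, while clone 1 overlapped WT mouse 1. Its log2 fold change in all KO against WT libraries was -1.29 ± 0.39 (SE), with an adjusted p of 0.29 (edgeR), and without WT mouse 2 it was -0.41. Hk1, the constitutive form, stood at 135 and 360 CPM in WT, 173 and 154 CPM in clone 1, and 131 and 135 CPM in clone 2. Of the 14 enzymes, Hk1 alone did not have both clone 2 libraries below the other 4, because clone 2 mouse 2 and WT mouse 1 were almost level.

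The next steps convert the sugar phosphate and split it. Gpi1, glucose phosphate isomerase, stood at 637 and 1052 CPM in WT, 617 and 589 CPM in clone 1, and 429 and 446 CPM in clone 2. Pfkl, the liver-type phosphofructokinase, stood at 310 and 504 CPM in WT, 296 and 294 CPM in clone 1, and 204 and 220 CPM in clone 2. In both genes the 3 groups did not overlap and were ordered WT, clone 1, clone 2, with clone 1 close to WT mouse 1. Against WT the KO libraries differed by -0.70 ± 0.26 for Gpi1 and -0.68 ± 0.26 for Pfkl on the log2 scale, both with an adjusted p of 0.34 (edgeR), and by -0.32 for each without WT mouse 2. Pfkp, the platelet-type phosphofructokinase, stood at 200 and 322 CPM in WT, 233 and 193 CPM in clone 1, and 144 and 141 CPM in clone 2. Aldoa, the main aldolase, stood at 1718 and 1913 CPM in WT, 1731 and 1545 CPM in clone 1, and 1090 and 1157 CPM in clone 2. In Pfkp and Aldoa clone 1 overlapped WT and clone 2 lay below both. The brain-type aldolase Aldoc was a minor form at 20.7 to 25.1 CPM over the 6 libraries.

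Triose phosphates are then oxidised and yield ATP. Tpi1, triose phosphate isomerase (chromosome 6, 124810586 to 124814296, minus strand), stood at 923 and 1241 CPM in WT, 926 and 961 CPM in clone 1, and 560 and 618 CPM in clone 2. Gapdh, the dehydrogenase that is often used as a reference gene (chromosome 6, 125161715 to 125166467, minus strand), stood at 2933 and 3702 CPM in WT, 3003 and 2694 CPM in clone 1, and 1612 and 1916 CPM in clone 2. In both genes clone 1 overlapped WT and clone 2 was separate and lower. Tpi1 and Gapdh had the lowest p of the enzymes in clone 2 against clone 1. The log2 fold change was -0.68 ± 0.25 for Tpi1 (unadjusted p = 0.030) and -0.69 ± 0.26 for Gapdh (unadjusted p = 0.036), each with an adjusted p of 1 (edgeR). Pgk1, phosphoglycerate kinase, stood at 1268 and 1917 CPM in WT, 1154 and 1275 CPM in clone 1, and 801 and 879 CPM in clone 2. Clone 1 again overlapped WT and clone 2 did not. The difference between clones was -0.53 ± 0.28.

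The last steps give pyruvate and lactate. Pkm, pyruvate kinase, stood at 2892 and 5243 CPM in WT, 3081 and 3074 CPM in clone 1, and 2118 and 2258 CPM in clone 2. Ldha, the lactate dehydrogenase subunit that favours lactate, stood at 1179 and 1641 CPM in WT, 1139 and 1207 CPM in clone 1, and 805 and 848 CPM in clone 2. Clone 2 was the lowest group in both genes and clone 1 lay at the level of WT mouse 1. The clones differed by -0.49 ± 0.33 for Pkm and -0.50 ± 0.25 for Ldha on the log2 scale. Pgam1, phosphoglycerate mutase, and Eno1, enolase, ranged over 756 to 1199 CPM and 686 to 1067 CPM. They were also lowest in clone 2, but unlike most of the enzymes they were highest in WT mouse 1. Eno1 has a near-identical copy, Eno1b, which stood at 624 and 1554 CPM in WT, 488 and 474 CPM in clone 1, and 427 and 483 CPM in clone 2. How reads were divided between such copies is not stated, so Eno1 is uncertain, as are other enzymes with processed pseudogenes such as Gapdh.

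**Figure D2:**
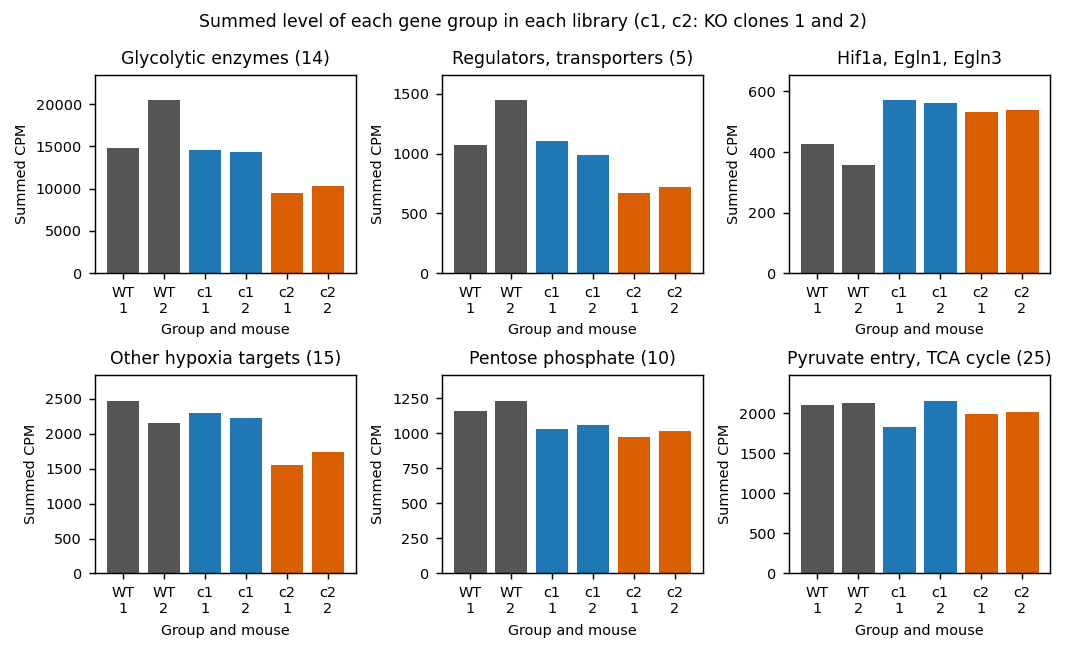
Summed CPM of each gene group (y axis, from 0) in each library (x axis, group and mouse number). The enzymes, the regulators and transporters, the other hypoxia targets and the pentose phosphate genes are lowest in the 2 clone 2 bars. The pentose phosphate genes stand at 976 and 1014 CPM there against 1028 and 1060 CPM in clone 1. The pyruvate entry and TCA cycle genes stand at 1993 and 2018 CPM in clone 2 against 1836 and 2158 CPM in clone 1.

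Transporters carry glucose in and lactate out. Slc2a1 (GLUT1, chromosome 4, 119108711 to 119137983, plus strand) stood at 317 and 421 CPM in WT, 296 and 243 CPM in clone 1, and 127 and 161 CPM in clone 2. The 3 groups did not overlap and were ordered WT, clone 1, clone 2. Clone 2 differed from clone 1 by -0.90 ± 0.26 (unadjusted p = 0.011, adjusted p = 0.93, edgeR) and from WT by -1.36 ± 0.26 (adjusted p = 0.16), or by -1.16 from WT mouse 1 alone. Slc16a3 (MCT4), which exports lactate, stood at 354 and 566 CPM in WT, 385 and 411 CPM in clone 1, and 228 and 244 CPM in clone 2. Clone 1 lay within the range of the WT libraries and clone 2 below it. The clones differed by -0.75 ± 0.28 (unadjusted p = 0.032, adjusted p = 1, edgeR).

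The regulators did not move as a block. Pfkfb3, a kinase whose product activates phosphofructokinase, stood at 175 and 285 CPM in WT, 222 and 141 CPM in clone 1, and 127 and 120 CPM in clone 2. Its clone 2 libraries were the lowest, at -0.56 ± 0.33 on the log2 scale against clone 1. Pfkfb4, a related kinase, ran the other way, at 51.0 to 61.5 CPM in WT and clone 1 and at 62.4 and 64.9 CPM in clone 2. That difference of 0.29 ± 0.20 from clone 1 did not pass the test. Pdk1, which restrains pyruvate entry into mitochondria, stood at 178 and 111 CPM in WT, 149 and 145 CPM in clone 1, and 130 and 128 CPM in clone 2. Its WT libraries enclosed all the KO values.

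Hif1a itself (chromosome 12, 73901375 to 73947530, plus strand) had the opposite order to most of the set. It stood at 264 and 134 CPM in WT, 373 and 397 CPM in clone 1, and 401 and 392 CPM in clone 2. All 4 KO libraries were above both WT libraries, and the clones were level with each other. The log2 fold change in KO against WT was 0.97 ± 0.28 (unadjusted p = 0.0084, adjusted p = 0.27, edgeR), and without WT mouse 2 it was 0.54. Egln1 (PHD2), the main oxygen-dependent hydroxylase of HIF-1 alpha, stood at 129 and 160 CPM in WT, 142 and 131 CPM in clone 1, and 91.8 and 102 CPM in clone 2. Its clones did not overlap and differed by -0.50 ± 0.21. Egln3 (PHD3), itself a hypoxia target, stood at 35.1 and 63.0 CPM in WT, 54.8 and 33.4 CPM in clone 1, and 40.7 and 46.8 CPM in clone 2, and its 3 groups overlapped.

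Among the other hypoxia targets, Adm had the largest difference between clones. Adm encodes adrenomedullin, a vasodilator peptide (chromosome 7, 110627661 to 110629820, plus strand). It stood at 7.12 and 6.54 CPM in WT, 7.17 and 4.92 CPM in clone 1, and 1.07 and 1.66 CPM in clone 2. The low clone 2 levels rest on 42 and 69 counts. WT and clone 1 overlapped and clone 2 was far below both, at 22.6% of the clone 1 mean. The log2 fold change was -2.15 ± 0.36 against clone 1 (unadjusted p = 0.00077, adjusted p = 0.33, edgeR) and -2.32 ± 0.37 against WT (adjusted p = 0.14). Ero1l, an oxidase for disulfide bonds in the endoplasmic reticulum, stood at 607 and 378 CPM in WT, 590 and 491 CPM in clone 1, and 274 and 273 CPM in clone 2. Here clone 1 lay within the WT range and clone 2 outside it, with a difference between clones of -0.98 ± 0.29 (unadjusted p = 0.012, adjusted p = 0.95, edgeR).

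A second pattern was a difference between WT and both clones. Car9, a cell surface carbonic anhydrase, stood at 17.9 and 30.5 CPM in WT, 10.7 and 10.5 CPM in clone 1, and 8.06 and 8.32 CPM in clone 2. Ankrd37, an ankyrin repeat gene known as a HIF target, stood at 22.4 and 32.7 CPM in WT, 15 and 11.8 CPM in clone 1, and 8.72 and 11.1 CPM in clone 2. Ddit4 (REDD1), an inhibitor of mTORC1, stood at 58.8 and 86.6 CPM in WT, 38.8 and 48.0 CPM in clone 1, and 28.8 and 37.8 CPM in clone 2. In each of the 3 genes both clones lay below both WT libraries, and clone 2 below clone 1. In KO against WT the log2 fold change was -1.36 ± 0.26 for Car9 (adjusted p = 0.11), -1.24 ± 0.26 for Ankrd37 (adjusted p = 0.14) and -0.92 ± 0.24 for Ddit4 (adjusted p = 0.24), all by edgeR. Without WT mouse 2 these values were -0.95, -0.97 and -0.64. Clone 1 alone differed from WT by -1.19 ± 0.31, -1.04 ± 0.29 and -0.74 ± 0.28 in the same order, with adjusted p of 0.41, 0.47 and 0.68 (edgeR). Car9 was highest in WT mouse 2, a library that was highest for 22 of the 36 tested members and for 35.1% of all genes. Cdh1 was also highest there, while most of the epithelial or tumour markers were under 1 CPM in every library. The part of epithelial RNA in Car9 was not tested.

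Ndrg1, a stress-induced gene, and P4ha2, a collagen prolyl hydroxylase, followed the same order at smaller size. Ndrg1 stood at 165 and 155 CPM in WT, 127 and 120 CPM in clone 1, and 95 and 105 CPM in clone 2, with no overlap between groups. P4ha2 stood at 67.6 and 101 CPM in WT, 57.2 and 58.1 CPM in clone 1, and 47.0 and 51.2 CPM in clone 2, also without overlap. KO and WT differed by -0.52 ± 0.17 for Ndrg1 (adjusted p = 0.31) and -0.66 ± 0.20 for P4ha2 (adjusted p = 0.29) in edgeR. Ndrg1 is one of the members whose WT libraries were close to each other, and its value without WT mouse 2 was -0.58.

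Vegfa, the vascular growth factor, stood at 315 and 644 CPM in WT, 359 and 374 CPM in clone 1, and 222 and 289 CPM in clone 2. Mxi1, a repressor related to MAX, stood at 79.7 and 56.9 CPM in WT, 63.8 and 55.2 CPM in clone 1, and 34.8 and 44.8 CPM in clone 2. In both genes clone 2 was separate and lowest while clone 1 overlapped WT. Kdm3a, a histone demethylase, had the same order over a range of 59.0 to 95.9 CPM. Bnip3, a mitophagy receptor, stood at 341 and 168 CPM in WT, 298 and 269 CPM in clone 1, and 177 and 199 CPM in clone 2. The clones did not overlap (-0.59 ± 0.35), but WT mouse 2 was below clone 2. Its relative Bnip3l (68.1 to 115 CPM), the collagen prolyl hydroxylase P4ha1 (308 to 502 CPM) and the mitochondrial protein Higd1a (42.3 to 110 CPM) had their lowest value in WT mouse 2 as well. Car12 stood at 0.176 and 0.275 CPM in WT, 0.218 and 0.0781 CPM in clone 1, and 0.153 and 0 CPM in clone 2, too low to compare.

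**Figure D3:**
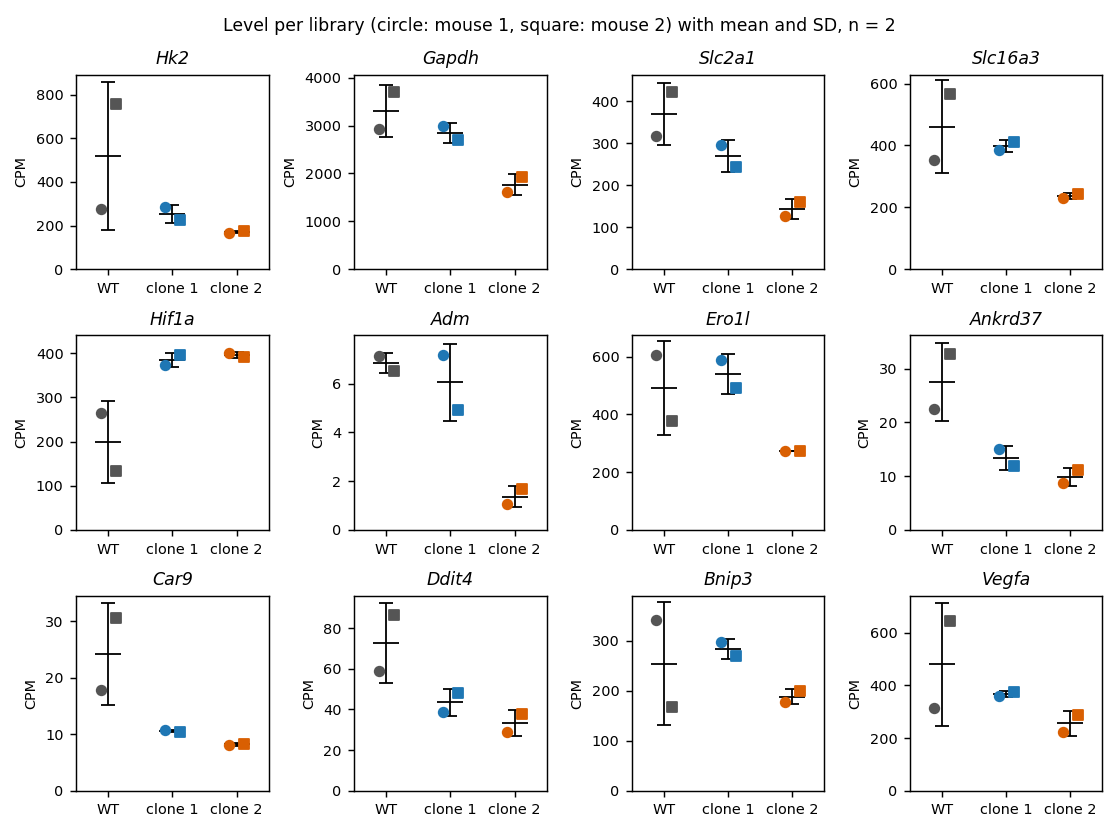
CPM of 12 members (y axes, from 0) in WT, clone 1 and clone 2, with circles for mouse 1, squares for mouse 2 and the mean with its SD (n = 2). Adm, Ero1l, Slc2a1 and Slc16a3 are lowest in clone 2, Car9, Ankrd37 and Ddit4 are lower in both clones than in WT, and Hif1a is higher in all 4 KO libraries.

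The comparison of all KO with WT libraries asks what the 4 mice with KO tumours share. Over all genes 21 of 15560 passed the test (0.135%), and 0 of the 36 members did (edgeR). At an unadjusted p under 0.05, 10 members were lower (7.38% of all genes were) and 1, Hif1a, was higher (6.25%). DESeq2 called 4 members (Hif1a, Ankrd37, Car9 and Ddit4) against 3.21% of all genes, and limma-voom called 0 members against 0.103%. Among the 19 glycolytic members the median log2 fold change was -0.54, and among the 17 tested hypoxia members -0.31, beside 0.0033 over all genes. All 14 enzymes had negative values. The libraries of KO and WT did not overlap in 8 members that were lower, where the share of all genes was 10.7%, and in 1 that was higher (12.9%).

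Clone 1 against WT gave smaller values than clone 2 against WT, in comparisons that share the WT libraries. In clone 1, 0 members passed in edgeR (0.00643% of all genes did), 3 were lower at an unadjusted p under 0.05 (2.85% of genes) and 1 was higher (4.25%). DESeq2 called 1 member, Car9 (1.78% of genes), and limma-voom 0 (0.00643%). The median was -0.27 for glycolytic and -0.15 for hypoxia members, beside 0.016 over all genes. In clone 2, 0 members passed in edgeR (0.00643% of genes), 23 were lower at an unadjusted p under 0.05 (6.17% of genes) and 1 was higher (5.12%). DESeq2 called 8 members (Hk2, Tpi1, Gapdh, Slc2a1, Adm, Ankrd37, Car9 and Ddit4) against 3.05% of genes, and limma-voom 0 against 0.00643%. The median was -0.89 for glycolytic and -0.68 for hypoxia members, beside -0.029 over all genes. Without WT mouse 2 the glycolytic median was -0.07 in clone 1 and -0.57 in clone 2.

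The contrast of clone 2 with clone 1 compares the clones directly, and its fold changes use no WT level. Its SE and p-values do draw on the WT libraries, through the spread shared by the 3 groups. Over all genes the median absolute log2 difference between mice was 0.620 in WT, 0.281 in clone 1 and 0.113 in clone 2. No gene of the table passed in edgeR (0%), and therefore no member. At an unadjusted p under 0.05, 6 members were lower (Tpi1, Gapdh, Slc2a1, Slc16a3, Adm and Ero1l) where the share of all genes was 1.91%, and 0 were higher (1.32%). DESeq2 called 1 member, Adm (0.767% of genes), and limma-voom 0 (0%). Both clone 2 libraries lay below both clone 1 libraries in 32 of 36 members, including all 14 enzymes, against 22.7% of all genes. Both lay above in 1, Pfkfb4, against 21.8%. The median was -0.50 for the 19 glycolytic and -0.38 for the 17 hypoxia members, beside -0.022 over all genes. Beside this, the median absolute log2 difference between the mice of clone 2 was 0.106 over the 36 members, and 0.153 between the mice of clone 1. Each clone was represented by 2 mice, and the clone cannot be told apart from other traits of its tumours. Whether the labels' mice were handled together is not stated.

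**Figure D4:**
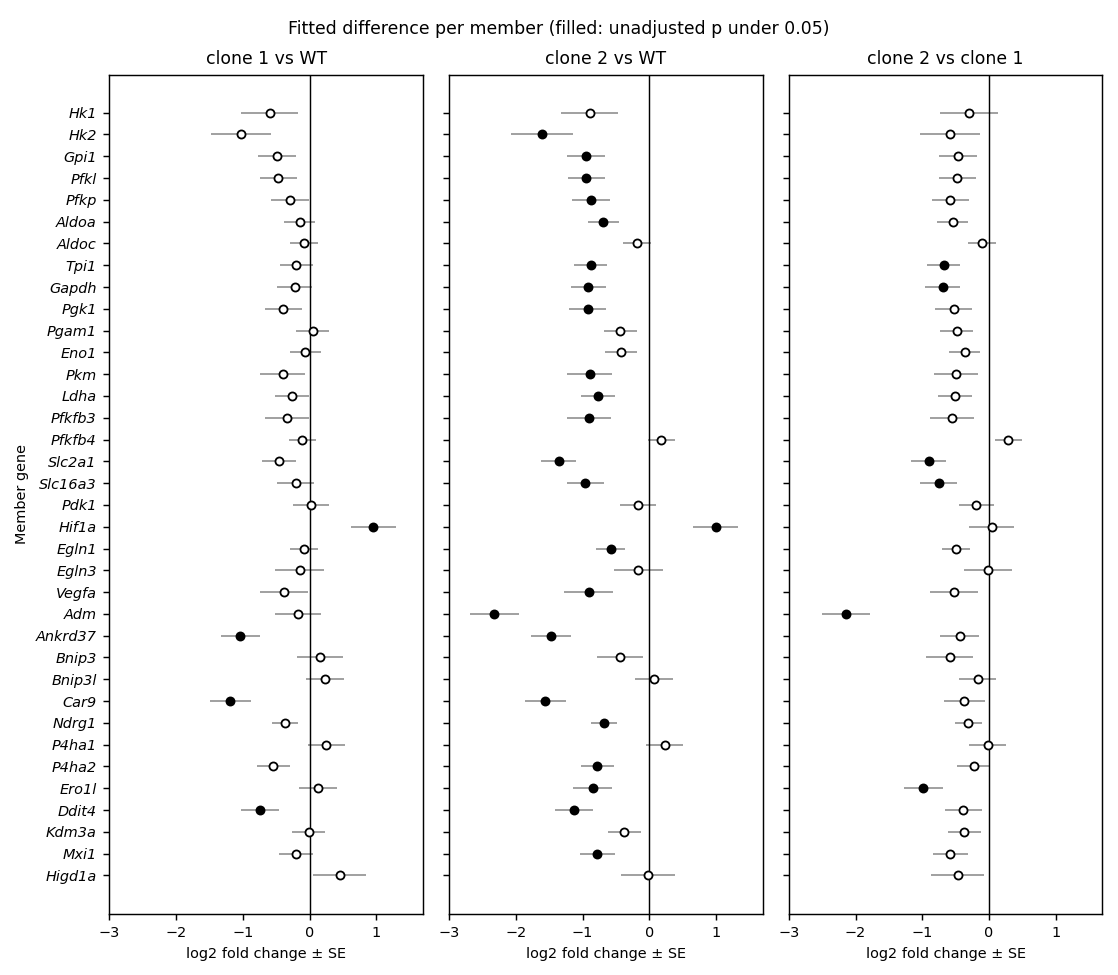
Fitted log2 fold change with its SE (x axis) for each tested member (y axis) in clone 1 against WT, clone 2 against WT and clone 2 against clone 1. Filled points have an unadjusted p under 0.05, which holds for 4, 24 and 6 members in that order, and none passed after adjustment over all genes.

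Part of the difference from WT rests on WT mouse 2. That library was above the other 5 in 22 of the 36 members (35.1% of all genes) and below them in 6 (38.7%). The 22 were 12 of the enzymes, Pfkfb3, Slc2a1, Slc16a3, Egln1, Egln3, Vegfa, Ankrd37, Car9, P4ha2 and Ddit4. The 6 were Pdk1, Hif1a, Bnip3, Bnip3l, P4ha1 and Higd1a. The base composition of their transcripts differed. The longest coding transcript in GENCODE M21 had a median GC content of 53.7% in the 22 and 43.8% in the 6. Over the 36 members the Pearson correlation of GC content with the log2 ratio of WT mouse 2 to WT mouse 1 was 0.633, and over 13458 genes it was 0.454, both as descriptions across genes within the same pair of libraries. The median absolute log2 difference between the WT mice was 0.618 over the members, against 0.620 over all genes. The part of GC content in the comparisons with WT was not tested. The fold changes between clones do not use this ratio, but their SE and p-values share the spread of the WT libraries.

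**Figure D5:**
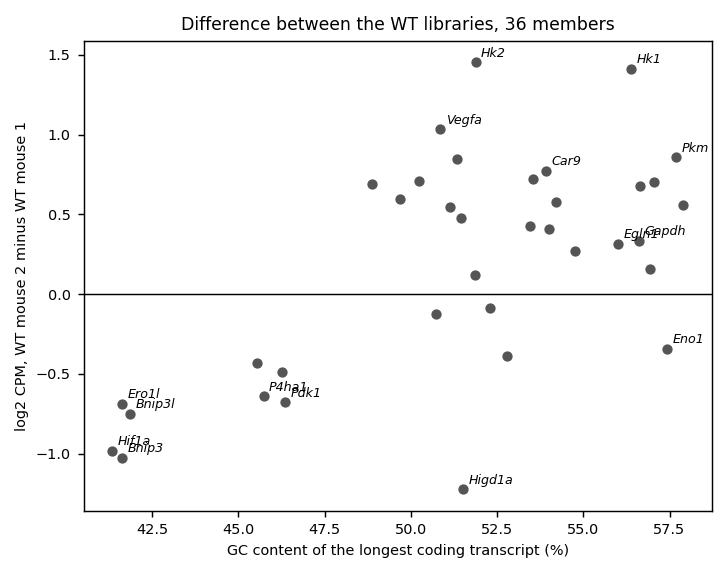
Each point is 1 of the 36 tested members, with the GC content of its longest coding transcript in percent (x axis) and the log2 CPM of WT mouse 2 minus that of WT mouse 1 (y axis). Members of low GC content such as Hif1a, Bnip3 and Bnip3l lie below 0, and most members of higher GC content lie above it.

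Levels of related genes were compared per kilobase of exon, as the median over the 6 libraries. Hk3 stood at 51.5 CPM per kilobase, Hk2 at 42.0 and Hk1 at 16.9, and the ranges of neighbours in this order overlapped. Pfkl (44.2 CPM per kilobase) was above Pfkp (14.7) and the muscle form Pfkm (9.28), whose ranges overlapped each other. Slc2a1 at 76.9 CPM per kilobase was the leading glucose transporter of those measured, above Slc2a6 (8) and Slc2a3 (0.985). Slc16a3 at 69.4 CPM per kilobase was above the other lactate carrier, Slc16a1 (14.9). Ldha at 350 CPM per kilobase was far above Ldhb (9.34). Among the hydroxylases Egln1 (36.1 CPM per kilobase) was above Egln3 (16.4) and Egln2 (14.5), and the ranges of these last 2 overlapped. Hif1a at 64.9 CPM per kilobase was far above Epas1, which encodes HIF-2 alpha (0.327), while their partner Arnt stood at 6.36.

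In neighbouring pathways the clone 2 sums were nearer to those of clone 1, but in some lists they were still the lowest. The pentose phosphate genes summed to 976 and 1014 CPM in clone 2 and to 1028 to 1232 CPM in the other libraries. The other glycolysis genes summed to 632 and 636 CPM in clone 2 and to 663 to 1060 CPM in the other libraries. None of their genes passed in edgeR in any of the 4 comparisons. The 10 pentose phosphate genes summed to 95.3% of clone 1 in clone 2, and the 25 genes of pyruvate entry and the TCA cycle to 100.4%. In clone 2 against clone 1, 0 genes of either list had an unadjusted p under 0.05, a level reached by 1.91% of all genes as lower and 1.32% as higher, so that 0 in lists of this size is near the background. Their median log2 fold changes were -0.07 and 0.04. The 29 other glycolysis genes, 25 of them tested, also had 0 at that level and a median of -0.25. The 14 other regulators of the HIF pathway had 0 and a median of -0.18. In clone 2 the other glycolysis genes summed to 84.6% of clone 1 and these other regulators to 87.9%. The glycolytic members summed to 68.6% and the hypoxia members to 77.4%. The difference between the member and neighbour medians was not tested. In KO against WT, the lowest p of the pentose phosphate list (adjusted p = 0.35, edgeR) belonged to Pgd, at 160 and 319 CPM in WT, 185 and 136 CPM in clone 1 and 135 in each clone 2 library. The lowest of the pyruvate entry and TCA cycle list (adjusted p = 0.25) belonged to Pcx, pyruvate carboxylase, which stood at 5.36 and 11.4 CPM in WT and at 3.34 to 4.17 CPM in the KO libraries. Both were highest in WT mouse 2. Of the 25 tested other glycolysis genes, 3 were lower in KO at an unadjusted p under 0.05 (12%, against 7.38% of all genes). At that level 2 were higher, against 6.25% of all genes. The 2 higher genes were Fbp2, a fructose bisphosphatase, and Slc16a7, a monocarboxylate transporter. Fbp2 had the lowest p of its list (adjusted p = 0.15, edgeR) at levels near 0, with 0.154 and 0 CPM in WT, 1.14 and 1.48 CPM in clone 1, and 0.916 and 0.866 CPM in clone 2. Slc16a7 stood at 6.61 and 1.58 CPM in WT, 8.46 and 8.54 CPM in clone 1, and 10.6 and 11 CPM in clone 2. All KO libraries were above both WT libraries in these 2 genes, as they were in 12.9% of all genes.

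A wider list of 48 hypoxia targets, 46 of them tested, was compared between clone 2 and clone 1. At an unadjusted p under 0.05 it had 6 lower (1.91% of all genes were) and 1 higher (1.32%). The median was -0.25, and the clone 2 sum was 83.55% of that of clone 1. The list summed to 3533 and 3659 CPM in clone 2 and to 3993 to 4436 CPM in the other libraries. Hilpda, an inhibitor of lipolysis on lipid droplets, stood at 50.5 and 66.0 CPM in WT, 53.7 and 39.4 CPM in clone 1, and 19.7 and 22.9 CPM in clone 2. The difference between clones was -1.13 ± 0.26 (adjusted p = 0.60, edgeR). Vldlr, a lipoprotein receptor, stood at 64.4 and 52.8 CPM in WT, 66.6 and 89.0 CPM in clone 1, and 33.1 and 38.6 CPM in clone 2, a difference of -1.12 ± 0.25 (adjusted p = 0.55, edgeR). Hmox1, heme oxygenase, stood at 266 and 238 CPM in WT, 428 and 245 CPM in clone 1, and 155 and 129 CPM in clone 2. In each of these 3 genes both clone 2 libraries were below the other 4, and in Vldlr both clone 1 libraries were above both WT libraries. Bhlhe41, a circadian repressor, had both clones below WT like Car9, at 37.6 and 36.5 CPM in WT, 21.3 and 11.8 CPM in clone 1, and 12.5 and 13.0 CPM in clone 2.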

How the data were processed

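Total RNA of sorted macrophages from 6 mice was depleted of ribosomal RNA and sequenced, per the labels. The authors deposited estimated counts by gene symbol, whole numbers that are not scaled for depth. The submitters' processing notes list Salmon 0.7.2 and mm10 with no role for either. Transcript set, use of strand and treatment of near-identical genes: not given in the sources used here. Groups and mice follow the labels, and the libraries of a group were not copies of each other (chi-square per degree of freedom 85.6 to 924 against counting noise).

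All genes were fitted with edgeR 4.0.16 (R 4.3.3): filterByExpr (minimum count 10, minimum total 15), TMM factors, the quasi-likelihood F test, two-sided, with Benjamini-Hochberg adjustment over 15560 genes and a threshold of 0.05. KO against WT used 2 genotype levels, and the other contrasts a fit with 3 groups sharing 1 estimate of the spread. SE is the absolute log2 fold change divided by the square root of F. CPM uses TMM-scaled library sizes. The fits were also run on simulated counts. Recovery in those runs is not reported here, so they do not show how often differences of the size seen here would pass. Positions, exon lengths and GC content came from GENCODE M21, and promoters from RefSeq (GRCm38.p6). Aldoa matched more than 1 GENCODE gene and has no value per kilobase.

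The members and gene lists were chosen with earlier results of these data known. Values per library are given for members with an unadjusted p under 0.05 in any contrast and for a chosen set of central genes, and the others by range. In each further list, the text could name up to 4 genes each way, by smallest p. Alternatives were RLE factors, DESeq2 1.42.0, limma-voom (limma 3.58.1), 2 other filters, the mouse number as a block, removal of Rn45s, the mean of the clones and leaving out each library. In the contrasts of single clones, p-values set the difference against the spread between the 2 mice of a group. That spread is estimated over the 3 groups, with information shared across genes. In KO against WT the mice of both clones form 1 group, so the difference between clones counts as spread.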

Additional observations from a re-analysis of the deposited data

How the results depend on the processing

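With 2 mice a group, no member passed in edgeR in any comparison, and this count depended on the tool, the filter and the WT libraries. DESeq2 called 4 members in KO against WT, 1 in clone 1 against WT, 8 in clone 2 against WT and 1 between clones, and 499, 271, 465 and 117 genes in the same order. Without a filter beyond 1 count the genes were 111, 123, 229 and 53, with 4 members (Slc2a1, Adm, Ankrd37 and Car9) in clone 2 against WT and 1 (Adm) between clones. Averaging both clones within the 3-group fit gave 1 gene for KO against WT. At least 5 CPM in 2 libraries gave 0 genes in each clone against WT. RLE size factors gave 9 genes and removal of Rn45s 8 genes in clone 2 against WT. Deviations of same-numbered libraries from their group means had correlations of -0.116 (WT and clone 1), 0.0403 (WT and clone 2) and 0.194 (both clones). With 2 libraries a group, these values cannot decide whether mice of the same number were handled together. With the mouse number as a replicate block, 15 genes passed in KO against WT, 0 in each clone against WT and 0 between clones, with 0 members throughout. Leaving out 1 library at a time, genes past the threshold ran from 1 to 6020 in KO against WT, 0 to 5535 in clone 1, 0 to 6445 in clone 2 and 0 to 87 between clones. Members ran from 0 to 16, 0 to 19, 0 to 26 and 0 to 1. The upper ends for the WT comparisons came without WT mouse 1, when WT mouse 2 alone stood for its group, was assumed to vary like the others, and 37.5%, 34.5% and 40.2% of all genes passed. Without WT mouse 2, 3 members passed in clone 2 against WT (Adm, Car9 and Ero1l) beside 186 genes (1.16%), and 1 between clones (Ero1l) beside 87 genes (0.541%). The glycolytic median ran from -0.82 to -0.32 in KO against WT, -0.50 to -0.07 in clone 1, -1.16 to -0.57 in clone 2 and -0.54 to -0.46 between clones. The hypoxia median ran from -0.51 to -0.22, -0.30 to 0.074 (positive without clone 1 mouse 2), -0.74 to -0.51 and -0.57 to -0.27. None of the log2 fold changes printed for single genes changed sign in these settings. The causes were not tested.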

Other observations

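Lox, which encodes lysyl oxidase, an enzyme that cross-links collagen and is known as a hypoxia target in other cells, had the largest positive difference between clones in the wider hypoxia list, in which 12 of 46 tested genes were positive in clone 2 against clone 1 and 34 negative. It stood at 14.4 and 5.85 CPM in WT, 6.74 and 3.10 CPM in clone 1, and 65.9 and 64.7 CPM in clone 2. Both clone 2 libraries were far above the other 4, with a log2 fold change of 3.73 ± 0.55 against clone 1 (adjusted p = 0.20, edgeR). The 12 fibroblast markers summed to 2478 and 3786 CPM in clone 1 and 3624 and 3953 CPM in clone 2. By log2 fold change between clones, 6 of them were negative and 6 positive, and their part in Lox was not tested. DESeq2 gave an adjusted p of 2.51e-09 for Lox in the same contrast.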
